A study of Mus musculus with 18 samples.

Results

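NFIA and NFIB, a pair of nuclear factor I (NFI) proteins, were mapped in the same preparations of mouse medulloblastoma cells, and the question here is how far the positions of one coincide with those of the other. The material is 6 of the 18 libraries of a CUT&Tag study, all those made from tumors: 3 libraries for NFIA and 3 for NFIB, assigned by sample title and paired by preparation (1, 2 and 3). CUT&Tag tethers a transposase to a bound protein through an antibody and sequences the DNA released around it. Tumor cells were isolated on a Percoll density gradient from the cerebellum of adult mice of an engineered model, with 100000 cells for each library. The alleles and strain of the model, and any pooling of animals, are not stated in the labels. The 2 other stages of the study serve only as background: hyperplasia at postnatal day 28 and granule neuron progenitors (GNPs) at postnatal day 7, each with 3 NFIA and 3 NFIB libraries. Nothing in the labels says that the preparations came from separate animals, and every p-value below rests on the variation among them, technical variation included.

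Each library was deposited as a list of peak summits, the single bases at which the signal of a called peak was highest, with the peak caller's −log10 p or q value as a score. The lists held 290139, 385466 and 165699 summits for NFIA in preparations 1, 2 and 3, against 49948, 106844 and 103829 for NFIB. Because list length differs between libraries and depth is unknown, only the 30000 autosomal summits with the highest scores were taken from every library, called top summits here. The score of the last summit kept was 3.46, 6.49 and 8.01 in the NFIA libraries, against 3.79, 5.40 and 8.95 in the NFIB libraries, so that the selection reached weaker summits in both libraries of preparation 1. For 2 of the 6 libraries the deposited list is named for the other target: the NFIA library of preparation 3 is named for NFIB and the NFIB library of preparation 1 for NFIA. Without them only preparation 2 remains as a pair. Counts of regions, the tests of genes and ranks, the same-target overlap, the gene-end share and the one-target regions at other stages were recomputed without these 2 libraries, and the other results on the targets were not. No pair of libraries looked like a library deposited again, since at most 0.4% of top summit positions were identical.

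NFI proteins bind DNA as dimers. Each monomer contacts the 5 letters TTGGC, called a half-site, and the palindrome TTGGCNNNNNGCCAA holds a pair of them, although a lone half-site can also be bound. NFIA, NFIB, NFIC and NFIX share a conserved DNA-binding domain, and NFIA and NFIB can pair with each other. In the cerebellum NFI proteins act as granule neuron progenitors leave the cell cycle and mature, and granule progenitors with active Sonic hedgehog (SHH) signalling can give rise to medulloblastoma.

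Sequences near the shared summits can be shown where a region of all 6 libraries met a promoter window. Most of the summits themselves lay outside the short stretches printed here. The 5 stretches below lie in the promoter windows with the best-ranked summits common to all 6 tumor libraries among the windows holding a half-site before the transcript start, and capitals mark the half-site nearest to the summit (TTGGC, or GCCAA on the other strand). Each is the transcript strand read 5′ to 3′, from the RefSeq promoter table of assembly GRCm38.p6, the build called mm10 in the study. The sixth is the only full palindrome in a promoter window with a summit region of all 6 libraries, with its 15 bases in capitals.
Ubxn6, chr17:56079456-56079516, minus strand: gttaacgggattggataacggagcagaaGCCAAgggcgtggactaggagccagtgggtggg
Gsk3b, chr16:38088759-38088819, plus strand: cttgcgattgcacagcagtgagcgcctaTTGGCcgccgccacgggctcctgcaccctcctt
4932412D23Rik, chr16:42875622-42875682, minus strand: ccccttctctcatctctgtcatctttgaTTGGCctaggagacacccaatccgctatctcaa
Pdia4, chr6:47813556-47813616, minus strand: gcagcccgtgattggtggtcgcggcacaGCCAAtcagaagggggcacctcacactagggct
Rmnd5a, chr6:71440682-71440742, minus strand: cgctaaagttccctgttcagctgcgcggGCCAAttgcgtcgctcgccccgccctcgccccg
Gstm7, chr3:107931853-107931881, minus strand: ttcgctcTTGGCACTCAGCCAAgccacca

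Among these 6 promoters, Ubxn6 encodes a cofactor of the p97 ATPase, Gsk3b a kinase of WNT and SHH signalling, Pdia4 a protein disulfide isomerase of the endoplasmic reticulum, Rmnd5a a ubiquitin ligase subunit and Gstm7 a glutathione transferase. 4932412D23Rik is a noncoding RNA gene that starts beside the 5′ end of Zbtb20, a transcriptional repressor with zinc fingers. The summit region at Ubxn6 had rank 46, 26 and 19 in the NFIA libraries and 25, 43 and 7 in the NFIB libraries of preparations 1, 2 and 3, where rank 1 is the highest score. The Pdia4 region ranked 61, 85 and 3 for NFIA, against 55, 19 and 126 for NFIB. The marked half-site of Pdia4 lay 74, 69 and 22 bp from the NFIA summits and 61, 55 and 14 bp from the NFIB summits. At Gsk3b the distances were longer, 157, 149 and 260 bp for NFIA and 103, 250 and 203 bp for NFIB. In 4 of the 5 half-site stretches, all except Ubxn6, the half-site is also part of a CCAAT box (CCAAT, or ATTGG on the other strand), with which it shares 4 letters. The palindrome of Gstm7 lay 78, 84 and 160 bp from the NFIA summits and 146, 93 and 64 bp from the NFIB summits, at ranks 1334, 441 and 363 for NFIA, against 1887, 1219 and 409 for NFIB.

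The highest NFIA and NFIB summits in tumors fell mostly at the same sites, and the sharing was less complete at lower ranks. Widening every top summit by 100 bp on each side and merging over the 6 libraries gave 69460 regions, of which 9774 (14.1%) held a top summit in all 3 NFIA and all 3 NFIB libraries. Only 188 regions (0.271%) held one in all 3 NFIA libraries and no NFIB library, and 239 (0.344%) in all 3 NFIB libraries and no NFIA library. Both belong to the 5589 regions of exactly 3 libraries, in which the 20 possible combinations of libraries had 133 to 544 regions each, with a median of 257.5. The fullest, with 544, was NFIA of preparation 3 with NFIB of preparations 2 and 3, the libraries whose deposited lists are named for NFIB. Those with lists named for NFIA had 169, so that the one-target counts depend on the assignment by title. A single library accounted for 35406 regions (51.0%). Together 39143 regions (56.4%) held summits of one target only and 30317 (43.6%) those of both. The 9774 regions held 33.3%, 34.2% and 38.3% of the top summits of the NFIA libraries, against 33.4%, 36.8% and 37.7% of those of the NFIB libraries. The targets as assigned by title thus overlapped in this share. Summits in no other library made up 27.7%, 20.7% and 13.3% for NFIA, against 31.9%, 13.0% and 11.5% for NFIB, highest in preparation 1 for both targets.

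**Figure D1:**
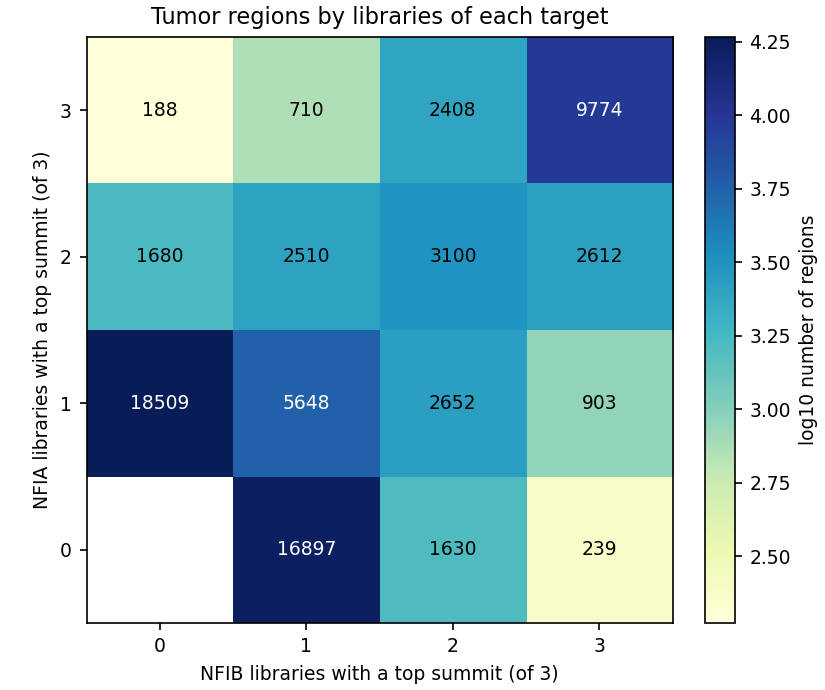
Number of merged tumor regions by how many NFIA libraries (vertical axis, 0 to 3) and NFIB libraries (horizontal axis, 0 to 3) held a top summit in them; colour is the log10 number of regions. The corner of all 6 libraries holds 9774 regions, against 188 and 239 in the corners of one target alone, and the cells of a single library are the fullest.

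Regions in 5 of the 6 libraries were most often without preparation 1. The missing library was NFIA of preparation 1 in 1373 regions, of preparation 2 in 738 and of preparation 3 in 501. For NFIB the numbers were 1589, 437 and 382. Both targets thus had their highest value in preparation 1, in which the top summits reach the lowest scores, and whether this sets the number of incomplete regions was not tested.

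Among the 1000 highest-ranked summits of a library, 98.0 ± 0.416% lay in regions of all 6 libraries for NFIA and 97.6 ± 0.551% for NFIB (SD, n = 3 libraries each). For ranks 1001 to 5000 the share was 82.9 ± 2.40% for NFIA and 83.7 ± 1.27% for NFIB. For ranks 5001 to 10000 it was 53.6 ± 3.89% for NFIA and 56.6 ± 2.87% for NFIB, and for ranks 20001 to 30000 it was 10.7 ± 2.55% for NFIA and 9.48 ± 3.20% for NFIB. The ranges of the NFIA and NFIB libraries overlapped in each of these bins. Of the 1000 highest NFIA summits, 0.0333 ± 0.0577% lay in a region with no top summit in any NFIB library, and of the 1000 highest NFIB summits 0.1% in every library lay in a region with none for NFIA. In ranks 20001 to 30000 these shares were 47.0 ± 9.34% for NFIA and 46.7 ± 20.6% for NFIB, and the NFIB libraries ran from 33.6% to 70.4%.

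**Figure D2:**
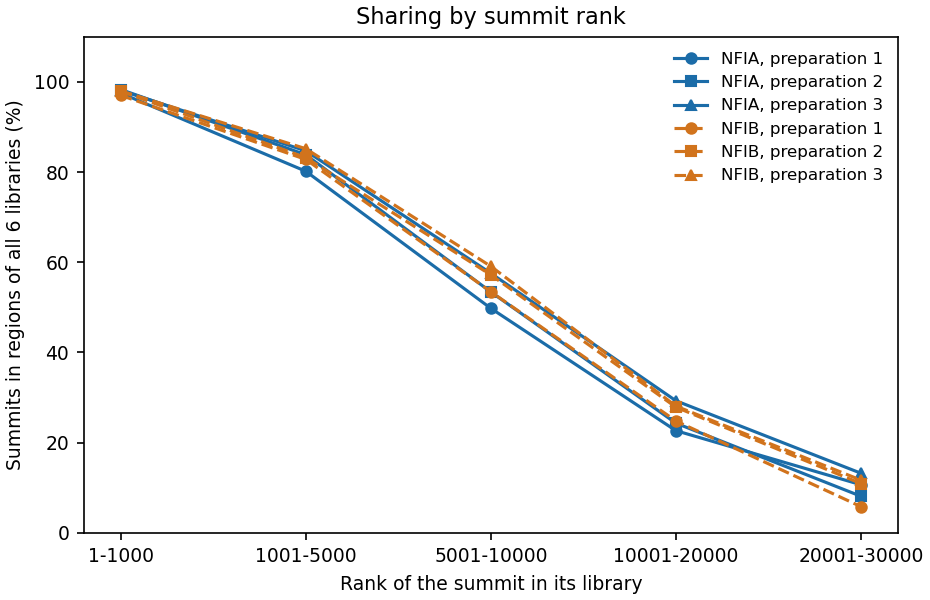
Share of the top summits of each tumor library that lay in a region of all 6 libraries (vertical axis, %), by the rank of the summit in its own library (horizontal axis, bins of rank); lines and markers are the 3 NFIA and 3 NFIB libraries. All 6 lines start between 97.0% and 98.3% and end between 5.82% and 13.2%, and the lines of the targets interleave.

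Regions found in more libraries lay near the ends of genes more often. Of the 9774 regions, 2706 (27.7%) lay within 1 kb of an end of a protein-coding gene, 3953 (40.4%) further inside a gene and 3115 (31.9%) between genes, of which 907 had no gene within 100 kb. The share near a gene end was 14.4% for regions of 1 library, 19.5% for 2, 21.4% for 3, 23.7% for 4 and 26.3% for 5. It was 17.6% for the 188 NFIA-only regions and 23.4% for the 239 NFIB-only regions. Shared regions were longer, with a median of 422 bp and a maximum of 1401 bp, which follows in part from merging more summits. The annotation gives gene spans without strand, so that an end can be a start or a 3′ end.

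**Figure D3:**
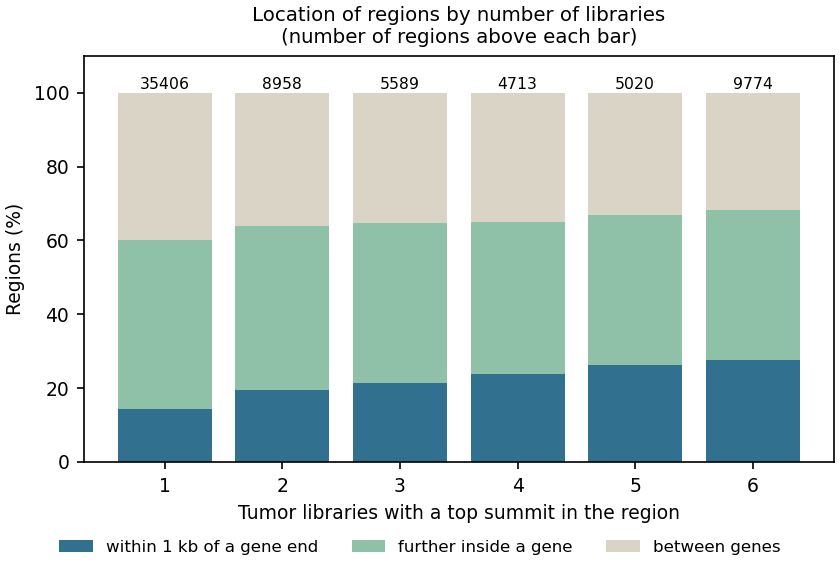
Location of tumor regions (vertical axis, % of regions) by the number of tumor libraries with a top summit in the region (horizontal axis, 1 to 6); stacked bars give, from the bottom, regions at most 1 kb from a gene end, those deeper inside a gene and those between genes. The gene-end share is 14.4% for regions of 1 library and 27.7% for those of 6.

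Over all top summits, NFIA and NFIB as assigned by title did not separate by location. Summits within 1 kb of a gene end made up 21.6%, 22.3% and 24.9% for NFIA, against 19.6%, 25.0% and 24.3% for NFIB in preparations 1, 2 and 3. The mean difference, NFIA minus NFIB, was −0.0422 percentage points, with NFIA higher in 2 of 3 preparations (exact paired permutation of signs, two-sided p = 1, smallest possible 0.25). With all listed summits in place of the top 30000 the difference was −8.27 points, in a comparison of lists of unequal length. Without the 2 libraries named for the other target the means were 22.0% for NFIA and 24.7% for NFIB, unpaired. By list name the shares were 21.6%, 22.3% and 19.6% for NFIA, against 24.9%, 25.0% and 24.3% for NFIB. This grouping puts both libraries of preparation 1 under NFIA and was not tested.

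The best-ranked shared regions were high in every library and common to the other stages. A rule took the 10 regions whose worst rank over the 6 libraries was best, and their worst ranks ran from 15 to 73. The first (chr4:120188827-120189106) lay between genes, 21611 bp from Edn2, which encodes the vasoactive peptide endothelin 2, with ranks 5, 5 and 9 for NFIA, against 5, 1 and 15 for NFIB. The second (chr14:120477491-120477754) lay 829 bp from Rap2a, a small GTPase, with ranks 12, 19 and 10 for NFIA, against 17, 3 and 12 for NFIB. A region inside Ralgps1, an exchange factor for Ral GTPases (chr2:33178559-33178812), ranked 8, 15 and 38 for NFIA, against 16, 25 and 26 for NFIB. A region inside Hhat, whose product attaches palmitate to hedgehog ligands (chr1:192696527-192696805), ranked 72, 32 and 6 for NFIA, against 48, 60 and 22 for NFIB. Others lay near Ubxn6 (26 bp) and Rab40c (356 bp), and between genes near Endov (11193 bp) and Rybp (65265 bp). The tenth (chr2:98666736-98667160) lay 1035360 bp from the nearest protein-coding gene, in a stretch of the mouse genome known to draw high signal in many assays, and ranked 1, 8 and 8 for NFIA, against 1, 17 and 73 for NFIB. All 10 held a top summit in all 6 GNP and all 6 hyperplasia libraries.

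By gene, 5804 of 20665 protein-coding genes (28.1%) were the nearest gene, within 100 kb, of at least 1 region of all 6 libraries. Most of them, 4126, had a single one and 9 had at least 10. Gse1, which encodes a subunit of a histone deacetylase complex (chr8:120228501-120581383), had 19, with 37, 45 and 42 top summits in the NFIA libraries and 38, 36 and 47 in the NFIB libraries. Auts2, a regulator of neuronal development (chr5:131437333-132543220), had 15. The calmodulin-binding factor gene Camta1 had 11, and Hivep3, the zinc transporter gene Slc39a11 and the axon growth gene Nav2 had 10 each. Rybp, a component of Polycomb complexes, had 9.

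These genes are mostly long, and a long gene collects more summits. Per 100 kb of gene span widened by 100 kb on both sides, the highest densities among genes with at least 3 such regions included 3.63 for the forkhead factor gene Foxo6 (8 regions), 3.48 for Rybp, 3.44 for Gse1 and 3.25 for the WNT ligand gene Wnt7b (8 regions). At Foxo6 the NFIA libraries had 14, 15 and 20 top summits and the NFIB libraries 14, 15 and 18, equal in 2 of the 3 preparations. At Wnt7b they had 12, 14 and 13 for NFIA, against 13, 15 and 14 for NFIB, 1 fewer for NFIA in each preparation. At Rybp they had 12, 16 and 15 for NFIA, against 16, 17 and 13 for NFIB.

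The 4 genes of the NFI family themselves each had regions common to NFIA and NFIB, 27 in all. Nfia (chr4:97578066-98118876) had 13, of which 12 lay inside the gene and 1 lay 2388 bp from it. Its NFIA libraries had 27, 32 and 28 top summits, against 27, 32 and 22 in its NFIB libraries, equal in 2 preparations. The best of these regions by worst rank (chr4:98047276-98047517) ranked 784, 227 and 1306 for NFIA, against 1023, 650 and 390 for NFIB. Nfib (chr4:82290173-82506751) had 5 regions, with 19, 17 and 14 top summits for NFIA and 17, 16 and 18 for NFIB. Nfic had 4 regions (7, 10 and 10 summits for NFIA, 8, 7 and 14 for NFIB) and Nfix had 5 (9, 8 and 13 for NFIA, 10, 7 and 9 for NFIB). The ranges of the targets overlapped at all 4 genes. None of the 27 regions lay within 1 kb of an end of its gene.

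Of the 15 genes of the SHH pathway, 11 had at least 1 region of all 6 libraries, against 28.1% of all protein-coding genes, and the median was 2 against 0. The lists were chosen with results of these data known, and their genes have a median span of 27.0 kb against 17.5 kb for all genes, so that these counts describe the list and no more. Gli2, a transcriptional effector of the pathway (chr1:118834061-119054405), had 10 regions, 9 inside it and 1 at 44362 bp from it, with 21, 22 and 20 top summits for NFIA, against 21, 22 and 18 for NFIB. Ptch1, the receptor that restrains the pathway, had 2, with 3, 5 and 6 top summits for NFIA, against 4, 4 and 3 for NFIB. Sufu, the cytoplasmic inhibitor of GLI proteins, had 4 regions, and its top summits were fewer for NFIA in every preparation, with 6, 4 and 5, against 9, 5 and 7 for NFIB (log2 fold change, NFIA over NFIB, −0.43, SE 0.08, limma adjusted p = 0.782). The signal transducer gene Smo had 2 regions, the coreceptor gene Gas1 3, the coreceptor genes Boc and Cdon 2 each and Gli3 1.

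Mycn, a target of the pathway that drives proliferation, had 3 regions. One of them (chr12:12904316-12904830), 31405 bp from the gene, ranked 296, 22 and 159 for NFIA, against 41, 20 and 136 for NFIB. The D cyclin gene Ccnd1 had 2 regions and Ccnd2 had 1. Shh, Hhip and Gli1 had none, and at Gli1 the NFIA libraries had 1 top summit each, against 0, 0 and 1 in the NFIB libraries.

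**Figure D4:**
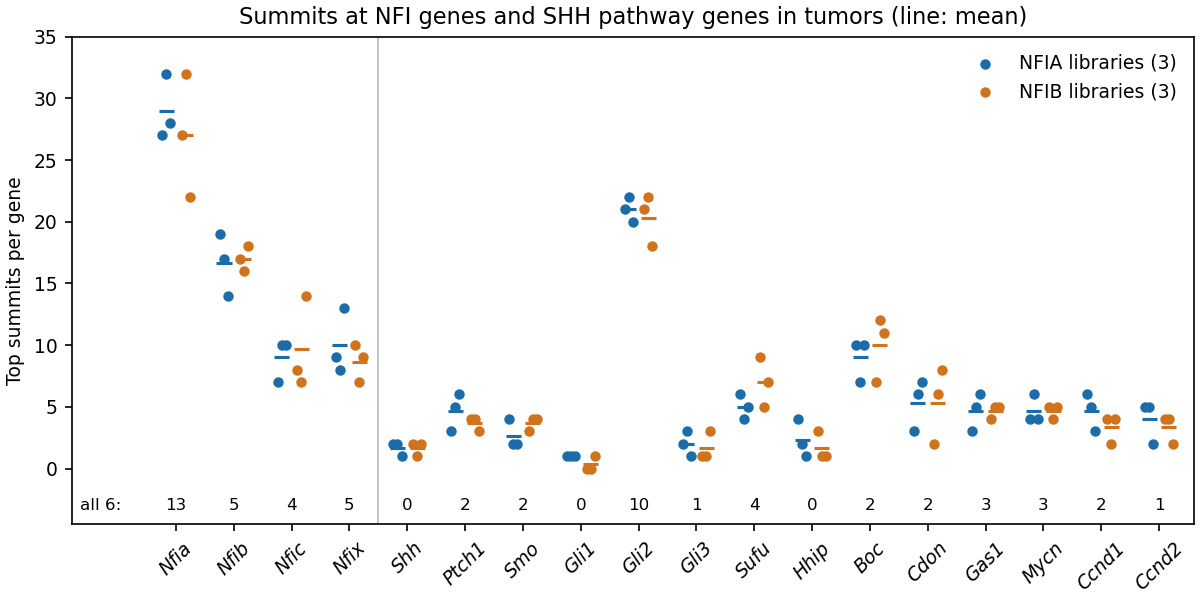
Top summits per gene (vertical axis) in the 3 NFIA and 3 NFIB tumor libraries at the 4 NFI genes (left of the grey line) and 14 of the SHH pathway genes; points are libraries, lines are means, and the row of numbers gives the regions of all 6 libraries nearest to the gene. Nfia (13) and Gli2 (10) hold the most such regions, and the points of the targets overlap at both.

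Genes of granule progenitor identity had such regions in 8 of 16 and genes of granule neuron differentiation in 9 of 18. Atoh1, the factor that specifies granule progenitors, had 3, and its top summits were fewer for NFIA in every preparation, with 3, 4 and 3, against 5, 6 and 4 for NFIB (log2 fold change −0.52, SE 0.09, limma adjusted p = 0.782). Insm1, a zinc-finger factor of progenitor division, had 2 and both lay within 1 kb of an end of the gene. Pax6 and Meis1, which mark granule progenitors, had none, although the NFIA libraries had 5, 6 and 4 top summits at Pax6, against 6, 3 and 5 in the NFIB libraries. On the differentiation side the splicing factor genes Rbfox1 and Rbfox3 had 8 and 7 and the glutamate receptor gene Grm4 had 6. Grm4 had 12, 10 and 14 top summits for NFIA, against 11, 11 and 12 for NFIB.

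Neural stem genes had shared regions in 8 of 13, among them Sox9 with 3, cell cycle genes in 12 of 21, among them Mki67 with 4, and medulloblastoma genes in 9 of 17, among them Chd7 with 6. Of the markers of other cells a tumor preparation could hold, 1 of 7 of microglia and macrophages had a shared region (Tmem119), 2 of 7 of vessels and meninges, 3 of 8 of astrocytes and Bergmann glia, 4 of 10 of Purkinje cells and interneurons and 5 of 7 of the oligodendrocyte lineage. None of the 8 genes of non-neural tissues had one. Over all protein-coding genes the share was 28.1%. It was 14.3% for microglia and macrophages, 28.6% for vessels and meninges and 37.5% for astrocytes and Bergmann glia. For Purkinje cells and interneurons the share was 40%, and for the oligodendrocyte lineage 71.4%, the highest of these marker lists. The stem, cell cycle and medulloblastoma lists had 52.9% to 61.5%. These lists too were chosen with results of these data known and differ in gene span, so that their counts describe the lists and no more. A summit near a gene does not say that the gene is expressed, so these counts do not measure how many such cells were present.

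Most shared tumor regions were also found at the earlier stages. Of the 9774, 6711 (68.7%) held a top summit in all 6 GNP libraries, 5572 (57.0%) in all 6 hyperplasia libraries and 4517 (46.2%) in all 12. Among all 69460 tumor regions the shares were 14.2%, 10.7% and 7.74%. The same procedure applied to each stage gave 12238 regions of all 6 libraries for GNPs (21.1% of 58105), 9185 for hyperplasia (13.5% of 67828) and 9774 for tumors (14.1%). Regions near a gene end were in all 12 other libraries in 57.4% of cases, against 41.6% of those further inside genes and 42.4% of those between genes.

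Of the shared tumor regions, 9 (0.0921%) held no top summit in any of the 12 other libraries, against 519 (9.29%) of the regions of 3 tumor libraries, 23779 (67.2%) of those of 1 and 26614 (38.3%) of all tumor regions. The 9 lay inside Arhgef18, Igf2bp3, Prtg, Ctnna2, Setd2 and Glis1, at 51891 bp from Lsm8, at 20607 bp from Slc20a1, and on chromosome 1 with no gene within 100 kb. Igf2bp3 encodes an RNA-binding protein, Prtg a cell surface receptor, Setd2 a histone methyltransferase and Glis1 a GLI-similar zinc-finger factor. Their worst ranks ran from 21057 to 29528, so that none was among the strongest. The regions at Igf2bp3, Ctnna2 and Lsm8 lie on chromosome 6, which held 6.82% to 7.32% of the top summits in the NFIA tumor libraries and 6.94% to 7.43% in the NFIB tumor libraries, against means of 5.36% for NFIA and 5.38% for NFIB in hyperplasia and of 5.29% for NFIA and 5.19% for NFIB in GNPs. Whether this share plays a part in the 3 regions was not tested.

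Regions of one target only ranked about as low as other regions of 3 libraries, and most were not exclusive to the target in the full lists. The median rank was 19856.5 for NFIA-only and 19135 for NFIB-only regions, against 18822 for all regions of 3 libraries and 6446.5 for regions of all 6. Of the 188 NFIA-only regions, 158 (84.0%) held a lower-scoring summit in the full list of at least 1 NFIB library, 22 of them in all 3, and 30 held none. Of the 239 NFIB-only regions, 201 (84.1%) held one in the full list of at least 1 NFIA library, 37 of them in all 3, and 38 held none. The full lists searched were of unlike length, with a mean of 280435 summits for NFIA and 86874 for NFIB. No share over all tumor regions stands beside these shares, so they cannot be called particular to regions of one target.

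The best of the NFIA-only regions by worst rank (chr10:21605505-21605761) had no gene within 100 kb and ranked 3509, 1857 and 4801. No NFIB tumor library listed a summit there at any score, but 2 GNP and 3 hyperplasia libraries had a top summit in it. The second (chr5:103910976-103911262) lay at a gene end of Klhl8, a ubiquitin ligase adaptor, with ranks 3589, 2894 and 6933, and all 3 NFIB lists held a lower-scoring summit there. The next 3 lay near or in the corepressor gene Tle3, Mideas and Fcer2a, with worst ranks between 12590 and 13732. The best of the NFIB-only regions (chr13:101202989-101203243) had no gene within 100 kb and ranked 7793, 4936 and 10774. The following 4 lay 21122 bp from Ptchd3, inside Ncald (a neuronal calcium sensor), at a gene end of the ceramide synthase gene Cers4, and 78435 bp from Gm4340, with worst ranks between 10863 and 12665. The Ptchd3 region was listed in no NFIA tumor library, but 5 GNP and 5 hyperplasia libraries had a top summit in it, which with 3 NFIB libraries per stage includes libraries of NFIA.

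The earlier stages give a measure of whether the one-target regions follow the target, since their libraries took no part in choosing them. The 188 NFIA-only regions held a top summit in 27.1% to 33.0% of cases in the 3 NFIA libraries of GNPs and 26.6% to 30.9% in the 3 NFIB libraries. In hyperplasia the ranges were 20.2% to 38.3% for NFIA and 33.5% to 35.6% for NFIB. Over the 6 preparations the difference, NFIA minus NFIB, was −2.13 percentage points, with NFIA higher in 3 of 6 (exact permutation of signs, two-sided p = 0.594). It was −6.53 points with all listed summits (p = 0.156) and −26.2 points with scores of at least 5 (p = 0.0625 by the same exact permutation), NFIA being higher in 1 of 6 in both. The 239 NFIB-only regions held one in 31.8% to 44.4% of cases in the NFIA libraries of GNPs and 37.7% to 44.8% in the NFIB libraries. In hyperplasia the ranges were 20.1% to 50.2% for NFIA and 41.8% to 47.7% for NFIB. Here the difference, NFIB minus NFIA, was 8.23 points, with NFIB higher in 4 of 6 (exact permutation of signs, two-sided p = 0.25, smallest possible 0.0312). It was 15.2 points with all listed summits (p = 0.0625), 24.2 points with scores of at least 5 (p = 0.0938) and 6.81 points with the 15000 highest (p = 0.0625 by the same exact permutation), NFIB being higher in 5 of 6 in each, and it was positive in all 11 alternatives run. Neither set passed 0.05 under any of them, and both differences had NFIB libraries higher, except for the NFIA-only regions with summits widened by 250 bp. With all listed summits or scores of at least 5 the lists were of unequal length, and a longer list can meet more regions. Summits with a score of at least 10, a cut used in neither setting, numbered 21337 for NFIB and 5161 for NFIA in GNP preparation 1. In hyperplasia preparation 3 they numbered 9573 for NFIB and 16579 for NFIA. Such counts need not follow the length of the full list. In hyperplasia preparation 2 they were 26210 for NFIB and 4954 for NFIA, while the full lists held 170971 for NFIB and 362180 for NFIA. Differences under these settings cannot be told apart from list length. The comparison of one-target regions at other stages was added with the data known. Its permutations treat the 6 preparations as independent, although they have only 2 title dates among them.

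With the top summits, mean overlap was close between the kinds of pairs of tumor libraries, whereas pairs that included preparation 1 stood lower. The Jaccard index, the regions common to a pair divided by the regions of either, averaged 0.420 for the 3 pairs of NFIA with NFIB of one preparation, 0.407 for the 6 pairs of one target across preparations and 0.415 for the 6 pairs of different target and preparation. The 4 pairs of one target with a library of preparation 1 had 0.363 to 0.385, while the other 2 had 0.441 for NFIA and 0.504 for NFIB. The lowest of all 15 pairs was NFIA with NFIB of preparation 1, 0.312, and the highest was NFIA with NFIB of preparation 3, 0.506. In both of these pairs the deposited lists are named for a single target. Pairs of lists named for NFIB had 0.495 to 0.506, and pairs of lists named for NFIA, which include both of preparation 1, had 0.312 to 0.363. Across preparations, same-target pairs minus other-target pairs gave −0.0078 (exact permutation, targets swapped within preparations, two-sided p = 0.25, the smallest possible). NFIA with NFIB of one preparation, minus different preparations, gave 0.0047 (exact permutation of pairings, one-sided p = 0.5, smallest possible 0.167). Neither test could reach 0.05, and both differences moved with the choice of summits. Same-target minus other-target overlap was 0.0489 with all listed summits (exact permutation, p = 0.25), and 0.0098 without the 2 libraries named for the other target. Same-preparation minus other-preparation overlap was 0.0877 with scores of at least 5 and 0.0119 with all listed summits (exact permutation, p = 0.167 for both).

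**Figure D5:**
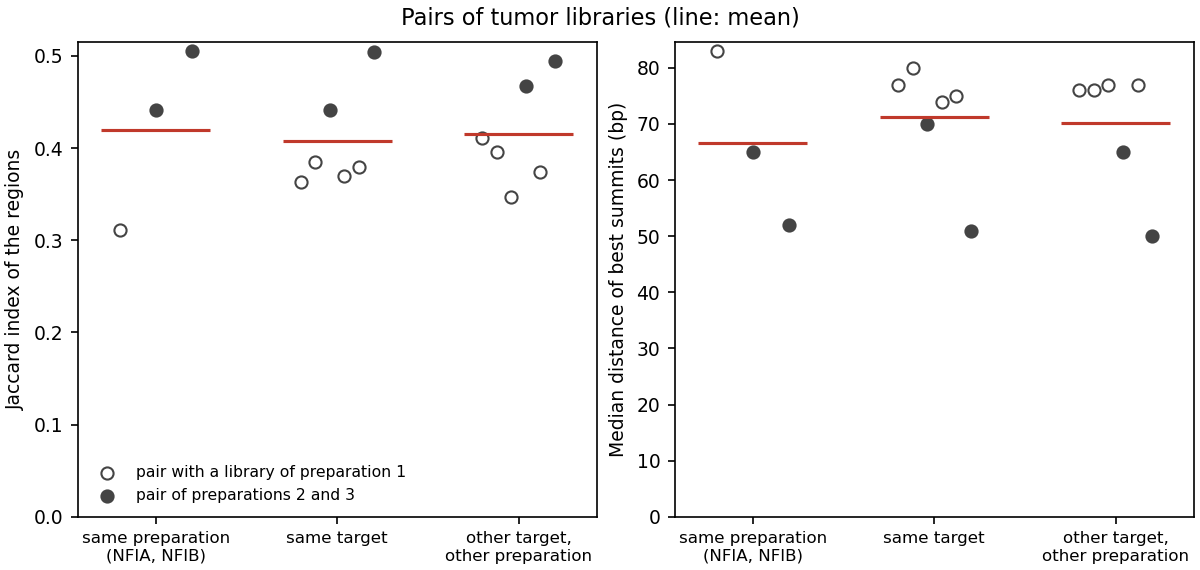
Pairs of the 6 tumor libraries: Jaccard index of their regions (left) and median distance in bp between their best summits in regions of all 6 libraries (right), for the 3 pairs of NFIA and NFIB of one preparation, the 6 pairs of one target and the 6 other pairs; red lines are means. Open points, pairs with a library of preparation 1, have lower indices (0.312 to 0.411) and longer distances (74 to 83 bp) than filled ones.

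Within the 9774 regions, the best summits of a pair of libraries lay a median of 66.7 bp apart for NFIA with NFIB of one preparation, 71.2 bp for pairs of one target and 70.2 bp for the other pairs, as means over pairs. The closest pair of all was of different targets by title, NFIA of preparation 3 with NFIB of preparation 2, at 50 bp. Next came NFIB of preparations 2 and 3 at 51 bp, and NFIA with NFIB of preparation 3 at 52 bp. The deposited list of this NFIA library is named for NFIB, so that by list name these pairs are all of NFIB. The ranks of the regions had a Spearman correlation of 0.590 on average for NFIA with NFIB of one preparation, 0.578 for pairs of one target and 0.607 for the others. These are correlations across regions that share their libraries and signal depth, and are given as descriptions.

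The overlap of NFIA with NFIB within a preparation, merging only that pair, was 0.256, 0.387 and 0.457 in tumors, against 0.402, 0.243 and 0.467 in hyperplasia and 0.377, 0.434 and 0.539 in GNPs. Tumors minus the other 6 preparations gave −0.0435 (exact permutation, two-sided p = 0.619, smallest possible 0.0238). Without the first tumor preparation the difference was 0.0118, so that its sign rests on that preparation. It was −0.12 with all listed summits (exact permutation, p = 0.167). A difference between stages could not be told apart from one of age or of title date, because no tumor preparation shares a date with one of another stage. The hyperplasia and GNP preparations have only 2 dates among them, preparation 3 of both standing apart, and the permutation treats preparations of one date as independent.

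Gene by gene, NFIA and NFIB summits were compared with limma on log2(top summits + 0.5), with target and preparation as terms, over 8651 genes with a mean of at least 1 top summit per library. One gene passed an adjusted p of 0.05, Manea, an endomannosidase gene (chr4:26324506-26346918), listed at 0, 0 and 0 top summits in the NFIA libraries, against 2, 2 and 2 in the NFIB libraries (log2 fold change −2.32 on the log2(summits + 0.5) scale, limma adjusted p = 0.0335). It makes 0.0116% of the tested genes lower in NFIA, against 0% higher in NFIA. An unadjusted p under 0.05 was found for 399 genes (4.61%). The call rests on counts that did not vary within a target. At 1120 tested genes (12.9%) the difference, NFIA minus NFIB, was the same in all preparations, genes with equal counts included. With all listed summits the log2 fold change of Manea was 1.71, higher in NFIA. Without preparation as a term 30 genes passed, and without that term and without the 2 libraries named for the other target 340 of 8999 did (124 higher and 216 lower in NFIA). Of these, all 30 and 335 of the 340 had counts that were identical in all libraries of each target, as did 9.06% and 19.1% of the tested genes. The test with preparation as a term recovered 0 of 100 simulated 2-fold and 0 of 100 simulated 4-fold changes, so that the near absence of calls says nothing about how many genes differ.

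The 24 genes next in p were tied, each with a constant difference of 1 summit, 12 higher and 12 lower in NFIA. One of them, Skor2, a list member that marks Purkinje cells, had 2 in every NFIA and 1 in every NFIB library, and the others named stand for the tie and not for a rank within it. Fcer2a, Tmem217, Slc32a1 (the vesicular GABA transporter), Dzip1 and Slain2 had 2 in every NFIA and 1 in every NFIB library. 3110040M04Rik, Tnks (tankyrase), Cnn3 and Plppr4 had 1 in every NFIA and 2 in every NFIB library. All of these had the same log2 fold change size, 0.74 or −0.74, and a limma adjusted p of 0.102. Every NFIA library lay above every NFIB library at 108 tested genes (1.25%) and below at 99 (1.14%). No member of the NFI, SHH, progenitor, neuron or other lists was called. The mean log2 summit number per gene correlated between targets with a Pearson r of 0.890 across the 8651 genes, which share gene length and are not independent.

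Among the ranks of the 9774 shared regions no difference between the targets was called. With limma on the normal scores of the ranks, 0 regions passed (0% in either direction), 308 had an unadjusted p under 0.05 (3.15%) and the smallest adjusted p was 0.999. In simulations 200 of 200 shifts of 6 residual SDs were recovered, with 10 false calls, and smaller shifts were not simulated. All simulated regions had the same spread, the median one, and no preparation effect. The power of the test in the real regions is therefore not known. The regions with the smallest p that ranked better for NFIA lay near Adgra1 and inside Arsg, Asic2 and Efcab6, or on chromosome 15 with no gene within 100 kb. The Arsg region (chr11:109530058-109530440) ranked 4636, 7342 and 6294 for NFIA, against 25777, 23534 and 18167 for NFIB, and the groups did not overlap. In the other direction a region 6617 bp from Ehhadh, a peroxisomal enzyme gene (chr16:21794180-21794596), ranked 29499, 16044 and 25214 for NFIA, against 4206, 3087 and 6397 for NFIB (limma adjusted p = 0.999 for both). Regions near Mapk13, at a gene end of Hdac3, and 2 with no gene within 100 kb completed the 5 in this direction.

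Promoters with a shared summit region held more half-sites and many more CCAAT boxes than other promoters. The RefSeq table gave 31365 autosomal windows of 300 bases, from 250 before to 50 after a transcript start, and 1993 (6.35%) overlapped a region of all 6 libraries. The half-site TTGGC, on either strand, was in 65.0% of these, in 54.1% of 4365 windows with a region of 1 to 5 libraries and in 44.0% of 25007 with none (46.7% of all windows). CCAAT, on either strand, was in 57.2%, 37.8% and 35.6% of the same classes of window (37.3% of all). Of the half-sites in the 1993 windows, 45.1% were part of a CCAAT box, against 26.7% in all windows, and half-sites outside CCAAT boxes were in 45.3%, 41.5% and 36.3% of the classes. The mean GC content was 63.7%, 62.8% and 51.6%, so that the first 2 classes were close in base composition and the last was not.

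Other promoter motifs, on either strand, did not all follow the number of libraries. The GC box GGGCGG was in 77.1%, 66.7% and 27.3% of windows with a region of all 6, of 1 to 5 and of no libraries (36.0% of all). The ETS core CCGGAA was in 27.0%, 30.7% and 11.4% (15.1% of all), the cAMP response element TGACGTCA in 3.91%, 3.69% and 1.34% (1.83% of all) and the E-box CAGCTG in 13.6%, 16.2% and 16.6% (16.3% of all). The full palindrome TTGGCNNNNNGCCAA was in 12 windows in all, of which 1 was among the 1993, that of Gstm7 printed above. These shares describe windows and not single binding events, and no test was made on them.

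Half-site density near the summit varied between libraries in the 1993 windows, and no test was made on it. Within 15 bp of the summit there were 4.26 ± 0.728 half-sites per kb for NFIA and 3.68 ± 0.299 for NFIB (SD, n = 3 libraries each), and at 121 to 150 bp 3.69 ± 0.645 for NFIA and 4.03 ± 0.234 for NFIB. The NFIA library of preparation 3, one of those named for the other target, stood out with 5.08 per kb within 15 bp and 2.99 at 121 to 150 bp. The other 2 NFIA libraries had 3.71 and 3.98 within 15 bp and 4.26 and 3.81 at 121 to 150 bp, and the NFIB libraries had 3.38, 3.69 and 3.98 within 15 bp and 4.28, 3.97 and 3.82 further out. CCAAT boxes numbered 4.45 ± 0.577 per kb for NFIA and 4.39 ± 0.117 for NFIB within 15 bp, with 3.83 ± 0.442 for NFIA and 3.65 ± 0.230 for NFIB at 121 to 150 bp. Neither motif fell steadily with distance. At 31 to 45 bp CCAAT boxes numbered 4.26 for NFIA and 4.85 for NFIB. At 91 to 120 bp they numbered 4.37 for NFIA and 4.77 for NFIB. Half-sites numbered 3.60 for NFIA and 4.13 for NFIB at 16 to 30 bp. At 91 to 120 bp half-sites numbered 4.17 for NFIA and 4.05 for NFIB. Over their whole length the windows with a summit region of all libraries held 3.68 half-sites per kb. The density for NFIB within 15 bp was thus no higher than that of the whole windows. Windows without any summit region, which have a lower GC content, held 2.01 half-sites per kb. Only promoters could be searched, so the shared regions away from gene starts were not searched for motifs here.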

How the data were processed

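CUT&Tag lists of NFIA and NFIB summits from 6 tumor libraries (and 12 of GNPs and hyperplasia as background) were used. Per the submitters' processing notes, reads were processed with Bowtie2, MACS2 and mm10, with no versions and no mention of a control library. The deposited lists hold 1-base summits with a −log10 p or q value as the authors' score, at least 2.00 in every list, so a summit not listed may lie below it. Neither reads nor coverage were used, depth is unknown, and no counting interval was computed.

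Target and stage came from sample titles, and the libraries of a preparation share a title date. Their deviations from the target means did not correlate (0.02, −0.07 and 0.05 over genes, −0.01, −0.13 and 0.01 over ranks for preparations 1, 2 and 3). The 30000 highest summits on the 19 autosomes were kept, with ties broken at random (seed 1, alternative 2), widened by 100 bp on both sides and merged. A region belongs to a library with a top summit in it. Summits and regions were assigned to 1 of 20665 protein-coding genes by the closest span (RefSeq, GRCm38.p6), up to 100 kb away. Tests were limma 3.58.1 (R 4.3.3; empirical Bayes, with a trend for genes; Benjamini-Hochberg at 0.05) and exact permutation tests; limma was tested on simulated data. Promoter windows came from the RefSeq table of the same assembly, and no genome sequence was used. Regions and genes named are those with the best worst rank (10, and 5 for each target alone), most regions (10) or highest density (5), smallest p (5 in each direction), and list members; a few that meet these rules are not reported here. The members and lists were chosen with earlier results of these data known. Other steps ran in Python 3.11.15 with SciPy 1.17.1, pandas 2.3.3, numpy 2.4.6 and matplotlib 3.10.9. The alternatives tried were other numbers, widths and scores of summits, tie seeds, gene-end distances, filters, pseudocounts and scalings, leaving out chromosome 6, single preparations or the 2 libraries named for the other target, and fits without preparation as a term.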

Additional observations from a re-analysis of the deposited data

Results flagged for a closer look

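The length of the deposited lists differed between the targets in opposite directions in tumors and GNPs. The NFIA list was longer than the NFIB list in all 3 tumor preparations, with 290139, 385466 and 165699 summits for NFIA, against 49948, 106844 and 103829 for NFIB (mean log2 difference 1.69). In 2 of these 3 tumor preparations, 1 and 3, a list is named for the other target, which leaves preparation 2 alone with both lists named as their titles. It was shorter in all 3 GNP preparations, with 55925, 77021 and 85145 for NFIA, against 88628, 159474 and 130282 for NFIB (mean log2 difference −0.78). The log2 differences of tumors minus GNPs differed by 2.46 (exact permutation of stages, two-sided p = 0.1, the smallest possible with 3 preparations against 3). Tumors and GNPs also differ in age and title dates, from which the stage cannot be told apart, and GNP preparations 1 and 2 share a date, while the permutation treats them as independent. In hyperplasia NFIA had the longer list in 2 of 3 preparations. Summits with a score of at least 10 did not follow the list length in tumors: there were 3016, 14655 and 21546 for NFIA, against 3085, 11085 and 26066 for NFIB.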

How the results depend on the processing

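Regions of all 6 libraries numbered 5153 with the 15000 highest summits, 19223 with all listed summits and 6108 with summits widened by 50 bp; the remaining alternatives, leaving out a preparation included, stayed within 1.5 times of 9774. NFIA-only regions numbered 105 with 15000 summits, 2519 with all summits and 82 with scores of at least 5, and NFIB-only regions 142 with 15000 summits and 117 with scores of at least 5. Asking for fewer libraries gives more of them: 1160 to 1427 (NFIA) and 1292 to 1625 (NFIB) without 1 preparation, and 1114 and 2078 without the 2 libraries named for the other target. Genes called numbered 25 with 15000 summits (Manea not among them), 30 without the replicate block and 340 without it and those 2 libraries, with Manea in both. They numbered 0 with all summits, scores of at least 5, no filter, a mean of at least 4 summits, equal totals, spread pooled over 18 libraries and without any 1 preparation (0 to 0); with pooled spread 12 of 100 simulated 4-fold changes were recovered. The adjusted p of Manea ran from 3.29e-06 to 0.771, and with all summits its log2 fold change was 1.71. No region passed by rank in any of the alternatives run, the fit without the replicate block included; the fit with the block and without those 2 libraries had no residual degrees of freedom and gave no value. Same-target minus other-target overlap was 0.0489 with all summits and 0.0098 without those 2 libraries. Same-preparation minus other-preparation overlap was 0.0877 with scores of at least 5, −0.00101 with 15000 summits, −0.000207 at 250 bp and −0.0078 to 0.0248 without 1 preparation. Tumors minus other stages was −0.12 with all summits, −0.0833 against GNPs alone, −0.00369 against hyperplasia alone, 0.0458 with scores of at least 5 and −0.0886 to 0.0118 without 1 tumor preparation. The gene-end difference was 0.0933 points within 2 kb, −1.08 to 1.30 without 1 preparation and −2.71 without those 2 libraries and unpaired. The NFIA-only difference at other stages was 0.813 at 250 bp and −26.2 with scores of at least 5, and the NFIB-only difference 4.15 to 24.2 points. The −26.2 and 24.2 points compare lists of unequal length. The causes were not tested, and none of these differences reached 0.05. Unknown depth limits all of them, since a summit below the list's lowest score is not seen.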
